A study of Mus musculus with 12 samples.

Results

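Oxidative phosphorylation subunits were examined in the hearts of 12 mice, as the rows whose gene symbol begins with Nduf, Uqcr, Atp5, mt- or Cox followed by a digit, together with Sdha, Sdhb, Sdhc, Sdhd, Cycs and Cyc1. Of the 13552 genes listed, which lack the mitochondrial protein gene mt-Nd4l, this rule took 123. They were 86 nuclear-encoded subunits (37 of complex I, 4 of complex II, 9 of complex III, 18 of complex IV, 17 of complex V, and cytochrome c), 12 mitochondrial-encoded protein genes, 2 mitochondrial ribosomal RNAs, 4 mitochondrial transfer RNAs, 17 assembly factors of complexes I and IV, and 2 pseudogenes.

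Hearts were taken 9 h after transverse aortic constriction (TAC), which narrows the aorta and loads the left ventricle with pressure, or after a sham operation. Each operation was done in 3 wild-type (WT) mice and in 3 mice homozygous for the Bcl-xL S14A knock-in (KI), in which alanine replaces serine 14 of the anti-apoptotic protein Bcl-xL, which gave 4 groups: WT sham and WT TAC, and KI sham and KI TAC. All were males of 8 to 10 weeks on a C57BL/6J background, and the substitution is carried in every cell of the body, so the KI groups are not a model of cardiomyocytes alone. RNA of heart tissue was poly(A)-selected and sequenced, and levels are in RPKM, reads scaled by exon length and by the reads of the library. Whether the atria were included was not stated, and the atrial markers Myl4, Myl7 and Sln were not among the genes listed. A change of a transcript within cells and a change in the number of cells that hold it cannot be told apart in such samples.

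The respiratory chain passes electrons from NADH through complex I, or from succinate through complex II, to ubiquinone, then through complex III and cytochrome c to complex IV, where oxygen is reduced. Complexes I, III and IV pump protons across the inner mitochondrial membrane, and complex V, the ATP synthase, uses the gradient to make ATP. Most subunits are encoded in the nucleus, while a small core of complexes I, III, IV and V is encoded in mitochondrial DNA and transcribed within the organelle as long transcripts of both strands. Contracting heart muscle draws most of its ATP from this pathway, and its mitochondria fill much of the cardiomyocyte.

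The promoters of 3 subunits called higher after TAC in KI than in WT hearts (below) are shown because, of the subunits called there, each had the largest change among those holding a given motif. They were taken from RefSeq (GRCm38.p6), from 250 bases before to 50 bases after the gene start, and 69 of the 86 nuclear subunits had such a window. Capitals mark 4 of the 6 searched motifs on either strand, namely the NRF-1 motif (given by its name alone and seen in Atp5k and Ndufs6), AAGGTCA (estrogen-related receptors), CCGGAAG (ETS factors) and AAGATGGCG (YY1). Uqcr11 encodes a small subunit of complex III, Atp5k the e subunit of ATP synthase and Ndufs6 an accessory subunit of complex I.
Uqcr11, chr10:80406772-80407071, minus strand: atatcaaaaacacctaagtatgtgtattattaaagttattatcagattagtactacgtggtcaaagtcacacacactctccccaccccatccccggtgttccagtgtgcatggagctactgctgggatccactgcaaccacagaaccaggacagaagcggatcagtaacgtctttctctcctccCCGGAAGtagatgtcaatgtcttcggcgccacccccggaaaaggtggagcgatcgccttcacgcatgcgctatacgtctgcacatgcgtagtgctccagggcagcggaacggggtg
Atp5k, chr5:108434350-108434649, minus strand: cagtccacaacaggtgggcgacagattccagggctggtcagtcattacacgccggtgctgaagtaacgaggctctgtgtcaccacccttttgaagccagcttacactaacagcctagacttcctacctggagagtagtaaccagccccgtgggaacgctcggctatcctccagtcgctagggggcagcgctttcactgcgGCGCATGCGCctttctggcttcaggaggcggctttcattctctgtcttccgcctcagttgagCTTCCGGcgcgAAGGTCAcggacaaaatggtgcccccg
Ndufs6, chr13:73328433-73328732, minus strand: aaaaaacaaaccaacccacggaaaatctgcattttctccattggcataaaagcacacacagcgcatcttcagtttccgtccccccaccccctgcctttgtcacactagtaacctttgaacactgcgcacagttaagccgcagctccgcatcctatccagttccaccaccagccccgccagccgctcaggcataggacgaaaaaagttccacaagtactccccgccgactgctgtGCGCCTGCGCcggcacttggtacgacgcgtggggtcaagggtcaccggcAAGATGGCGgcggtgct
The NRF-1 letters began 50 bases before the start of Atp5k and 16 bases before that of Ndufs6. Over all windows, they were found in 17 of 69 subunits (24.6%) and in 11.7% of 8400 other protein-coding genes tested. The estrogen-related receptor letters were in 8 subunits (11.6%), against 3.69% of the other genes, and the YY1 letters in 7 (10.1%), against 3.76%. The ETS letters were about as common in subunits (24.6%) as elsewhere (20.2%), and the Sp1 letters GGGCGG were less common (42.0% against 71.7%). The letters CCAAT were in 43.5% of subunits and 42.2% of other genes. Of the 25 subunits with a window called in that comparison, 6 held the NRF-1 letters, and of the 44 others 11 did. These counts were 5 and 3 for the estrogen-related receptor letters, 6 and 11 for ETS, 3 and 4 for YY1, 5 and 24 for Sp1, and 10 and 20 for CCAAT. A match is a description of these letters and not evidence of binding.

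By mean level over the 12 mice, the highest nuclear transcripts of complexes II to V were Sdhb, the iron-sulfur subunit of complex II (286 ± 87.6 RPKM in WT sham hearts, SD, n = 3), Cyc1, the cytochrome c1 of complex III (694 ± 104 RPKM), Cox6a2, a muscle isoform of complex IV (2004 ± 415 RPKM), and Atp5a1, the α subunit of ATP synthase (1368 ± 245 RPKM). The medians of the subunits' mean levels were 68.8 RPKM for complex I, 195 RPKM for complex II, 212 RPKM for complex III, 139 RPKM for complex IV and 131 RPKM for complex V. Of the 12 mitochondrial-encoded protein genes 7 were above 1000 RPKM in every mouse, with mt-Co1 the highest at 25543 ± 7147 RPKM. The 86 nuclear subunits took between 1.96% and 3.94% of the reads on genes, of which there were 23650218 to 32455246 per mouse, and the mt- genes took between 6.36% and 12.5%. Cardiomyocyte markers were abundant throughout, at a summed level of 13773 to 23755 RPKM for 8 genes.

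Genes were tested with limma on log2(RPKM + 1), and a gene was called at a Benjamini-Hochberg adjusted p under 0.05 over the 11240 genes with at least 1 RPKM in at least 3 mice. Of the 123 members 122 passed this filter, all but Cox16 (0.306 to 0.749 RPKM). Fold changes are on the log2(RPKM + 1) scale, which understates those of low genes.

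The first comparison asked how the transcripts stood 9 h after TAC in WT hearts. After TAC the mean of all 86 nuclear subunits was lower than in sham-operated WT hearts, with a median log2 fold change of −0.54 against 0.04 for all genes tested. None passed the threshold. The smallest adjusted p of a nuclear subunit was 0.0525 in limma, and 48 of 86 were at an unadjusted p under 0.05, against 3135 of 11240 genes. On recovered read counts limma-voom also called none. Of all genes 4.6% were called lower and 6.96% higher. In 71 of the 86 subunits every WT TAC heart lay below every WT sham heart, against 15% of all genes, and in 0 every WT TAC heart lay above, against 20%.

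The lower level was shared by the complexes. The medians were −0.57 for the 37 subunits of complex I, −0.60 for the 4 of complex II, −0.55 for the 9 of complex III, −0.47 for the 18 of complex IV and −0.52 for the 17 of complex V. In complex I the changes ran from −0.76 for Ndufs6 to −0.36 for Ndufa1, and in complex IV from −0.96 for the muscle isoform Cox7a1 to −0.01 for Cox6a1. Cycs, the mobile electron carrier cytochrome c, stood at 62.9, 67.2 and 57.2 RPKM in the WT sham and at 51.8, 51.8 and 67.1 RPKM in the WT TAC hearts, so that the groups overlapped. The subunit nearest the threshold was Cox7a2l, a factor that joins complexes III and IV into supercomplexes, at 26.5, 20.4 and 20.4 RPKM in sham-operated hearts and at 10.8, 11.6 and 18.3 RPKM in WT TAC hearts. Its log2 fold change was −0.71 (standard error 0.22, limma adjusted p = 0.0525).

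**Figure D1:**
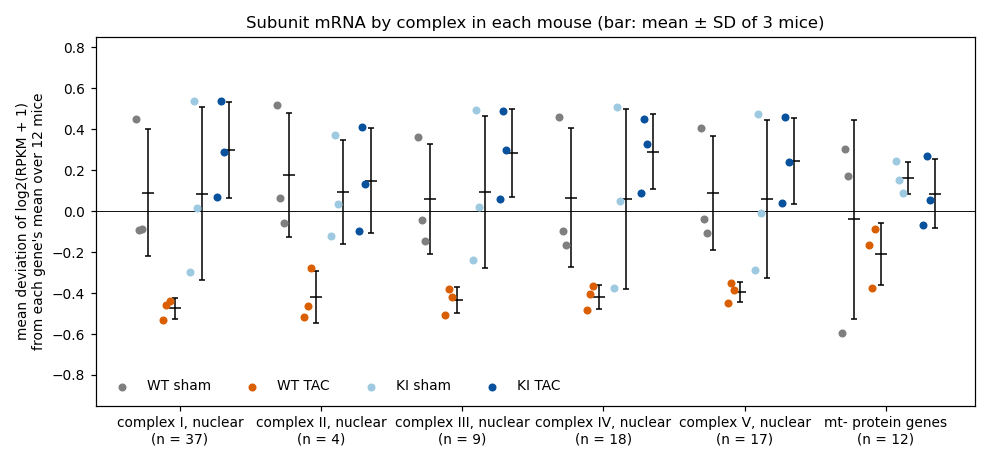
Mean deviation of log2(RPKM + 1) from each gene's mean over the 12 mice (vertical axis), by complex and for the mt- protein genes, with a point per mouse and a bar for mean ± SD of the 3 mice of a group. WT TAC hearts lie lowest in each nuclear class, except that for complex IV the KI sham mouse 1 (−0.37) lies among them; the sham mice spread widely, and KI TAC hearts lie higher.

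The spread between sham hearts was large and also ran through the complexes together. The mean of the 86 nuclear subunits lay 0.43 above its mean over all mice in WT sham mouse 1, and 0.07 and 0.11 below it in mice 2 and 3 (log2 units). In KI sham hearts the values were −0.29, 0.50 and 0.02. WT TAC hearts were close to each other at −0.50, −0.42 and −0.40, and KI TAC hearts lay at 0.06, 0.49 and 0.28. In the same libraries, the deviation of all genes was related to exon length. The correlation with log2 length across genes was −0.25 in WT sham mouse 1 and −0.36 in KI sham mouse 2, so that these libraries held more of short transcripts. It was 0.25 in KI sham mouse 1, 0.04 and 0.18 in WT sham mice 2 and 3, and 0.08 in KI sham mouse 3. The range was 0.14 to 0.20 in WT TAC hearts and −0.15 to −0.05 in KI TAC hearts. The nuclear subunits are short, with a median of 1578 exonic bases against 4282.5 for all genes tested. Cell type markers also differed between these groups. Of the cardiomyocyte markers 2 of 8 were called lower in WT TAC than in sham hearts, with a median log2 fold change of −0.40. Called higher were 3 of 4 leukocyte markers (median 1.02), 2 of 3 neutrophil markers (1.14) and 1 of 4 smooth muscle markers (0.62). None of 6 fibroblast markers (median 0.74) or of 5 erythroid markers (−0.70) was called, and the part of these cells in the result was not tested. With the length trend of each library removed, a step added after the data were seen, 16 nuclear subunits were called lower in WT TAC hearts, against 8.26% of all genes, and the median was −0.49. With GC content removed as well there were 18, against 8.73%. Without WT sham mouse 1 the median was −0.36 and 2 members were called, neither of them a nuclear subunit.

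The same comparison was made in KI hearts. In 70 of the 86 nuclear subunits the mean was higher after TAC, and in 16 lower, with a median of 0.20 against −0.10 for all genes. Limma called no member, with 9 of the 122 at an unadjusted p under 0.05, against 4140 of 11240 genes, and limma-voom called 1, which was no nuclear subunit. Of all genes 23.3% were called, 8.57% higher and 14.7% lower. The mean of the nuclear subunits spread more widely over the KI sham hearts than over the KI TAC hearts, whose range lay within it, and only 2 nuclear subunits, Uqcr11 and Cox7c, were higher without overlap, as were 13.6% of all genes, and 1, Ndufa4l2, was lower without overlap, against 24.7%. A fit left out WT sham mouse 1 and KI sham mouse 2, the 2 libraries with the strongest shift to short transcripts. It called 12 nuclear subunits higher in KI TAC hearts, against 855 of 11240 genes, and the median was 0.43. KI sham mouse 1, with the strongest shift to long transcripts (correlation 0.25), stayed in that fit. With only KI sham mouse 1 left out the median was 0.03, and with only KI TAC mouse 6 left out it was 0.09. Of the cell type markers all 3 for neutrophils (median log2 fold change 1.91) and Fabp4 (1.43), the only adipocyte marker measured, were called higher after TAC. Called lower were 1 of 6 fibroblast markers (median −0.52) and 1 of 8 cardiomyocyte markers (0.00), and of 4 leukocyte markers 1 was called higher and 1 lower. Their part in the result was not tested.

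**Figure D2:**
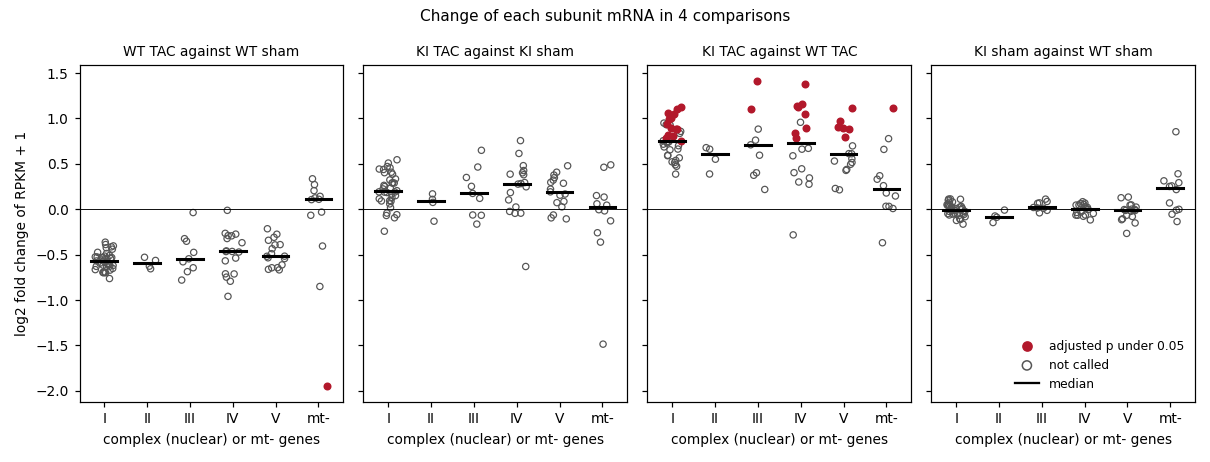
Log2 fold change of each subunit (vertical axis) in 4 comparisons, by nuclear complex and for the mt- protein genes, with filled points for genes called at an adjusted p under 0.05 and a line at each median. Nuclear medians lie below 0 in WT TAC against sham, slightly above 0 in KI TAC against sham, between 0.61 and 0.75 in KI TAC against WT TAC, and near 0 between the sham groups.

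The interaction compared the changes after TAC in KI and WT hearts. The difference of the changes was positive in 85 of 86 nuclear subunits, with a median of 0.72 against −0.13 for all genes tested, and Ndufa4l2 was the exception. No member passed the threshold in limma or limma-voom. The smallest adjusted p of a member was 0.201 in limma, and 45 nuclear subunits were at an unadjusted p under 0.05, against 1668 of all genes, of which none was called. With all mice included, the sham groups themselves differed little in their means. The median of KI sham against WT sham was −0.00 for the 86 subunits, the range was −0.27 to 0.13, and limma called no member, with 2 of 122 at an unadjusted p under 0.05, against 37 of 11240 genes, and 0.0178% of all genes called. Without KI sham mouse 2 this nuclear median was −0.22, and without KI sham mouse 1 or WT sham mouse 1 it was 0.17. No nuclear subunit was without overlap between the sham groups, while 2.08% of all genes were higher and 1.19% lower in that way.

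Between the groups after TAC, nuclear subunits were higher in KI hearts. Limma called 30 of 86 higher and none lower, while 2.92% of all genes were called higher and 8.13% lower. The median log2 fold change was 0.71 against −0.12 for all genes tested, 85 of 86 were positive, and in 75 every KI TAC heart lay above every WT TAC heart, as in 10.1% of all genes. The WT TAC mice of this comparison are those of the first, so the values do not stand as separate evidence. Called were 14 of 37 subunits of complex I, 0 of 4 of complex II, 2 of 9 of complex III, 8 of 18 of complex IV and 6 of 17 of complex V. The medians were 0.75, 0.61, 0.71, 0.73 and 0.61 in that order.

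Uqcr11 changed most (gene at chr10:80402997-80406830, GRCm38). It stood at 232, 115 and 109.9 RPKM in the WT sham hearts and at 82.1, 89.4 and 78.1 RPKM in the WT TAC hearts. In KI hearts it was at 85.5, 203.5 and 165 RPKM after sham and at 203.95, 257 and 213 RPKM after TAC. All WT TAC hearts were below, and all KI TAC hearts above, the sham hearts of their genotype. In KI hearts this was by a narrow margin, as KI sham mouse 2 and KI TAC mouse 5 were almost equal. The log2 fold change between the TAC groups was 1.42 (standard error 0.32, limma adjusted p = 0.0187).

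Cox7a1, the muscle isoform of a small complex IV subunit, was next (chr7:30184144-30186078). Its level was 381, 421 and 313 RPKM in WT TAC hearts and 859, 1153 and 899 RPKM in KI TAC hearts, and its log2 fold change was 1.38 (standard error 0.32, limma adjusted p = 0.0208). The KI sham hearts, at 498, 1112 and 698 RPKM, covered the space between them. Cox7c, another small subunit of complex IV, was at 48.4, 54.3 and 50.3 RPKM in WT TAC and at 98.3, 135 and 114 RPKM in KI TAC hearts. Its log2 fold change was 1.16 (standard error 0.29, limma adjusted p = 0.0245), and the KI TAC hearts also lay above all KI sham hearts, of which the highest was at 92.7 RPKM. Cox8b, the muscle form of subunit 8, was at 149 ± 23.8 RPKM in WT TAC and 327 ± 23.4 RPKM in KI TAC hearts (SD, n = 3 per group), and its log2 fold change was 1.14. Ndufs6 was at 61.0 ± 1.48 and 135 ± 20.3 RPKM (1.12). The groups did not overlap for either gene.

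The remaining called subunits had log2 fold changes between 0.75 and 1.12. In complex I they included Ndufb7 (1.10), Ndufv3 (1.06) and Ndufc1 (1.05), accessory subunits, and the core subunit Ndufs3 (0.81). In complex III Uqcrq (1.11) was called. In complex IV Cox6b1 (1.12), Cox4i1 (1.05), Cox6c (0.90) and Cox5b (0.84) were called, and in complex V Atp5k (1.12), Atp5j2 (0.97) and Atp5l (0.91), membrane subunits of ATP synthase, with 2 of the 3 genes of the c ring, Atp5g3 (0.90) and Atp5g1 (0.80). Among the subunits not called, Atp5a1 had a log2 fold change of 0.53 (limma adjusted p = 0.118) and Cyc1 of 0.40 (limma adjusted p = 0.199). Ndufb1-ps, also called (0.90), is annotated as a noncoding RNA and is counted here with complex I by its symbol.

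The changes were also set beside exon length. Of the 21 subunits with exons under 1000 bases 10 were called, with a median log2 fold change of 0.83, of the 33 with 1000 to 2000 bases 11 (0.73), and of the 32 longer ones 9 (0.64). Spearman's rho between length and log2 fold change was −0.27 over the 86 subunits, a description across genes that share the 6 libraries. With the length trend removed 54 nuclear subunits were called higher, with a median of 0.67, against 5.55% of all genes, and with length and GC trends removed 48, with a median of 0.62, against 5.41%.

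The count rested on single mice. Without KI TAC mouse 6 or without WT TAC mouse 7 no member was called, although the medians were 0.61 and 0.67, and without WT TAC mouse 10 or KI TAC mouse 7 there were 11 and 19. In a fit of the 6 TAC hearts alone 18 were called. Over all genes the main fit called 328 higher and 914 lower. Without KI TAC mouse 6 these counts were 61 and 125, and without WT TAC mouse 7 they were 49 and 113. They were 173 and 624 without WT TAC mouse 10, 374 and 1448 without KI TAC mouse 7, and 75 and 141 in the fit of the 6 TAC hearts. In the libraries compared, cell type markers differed too. The mean of 8 cardiomyocyte markers deviated by −0.47, −0.29 and −0.13 log2 units in WT TAC and by −0.22, 0.32 and 0.05 in KI TAC hearts, and 2 of the 8 were called higher in KI TAC hearts. Fibroblast markers were 6 genes with summed levels of 143 to 753 RPKM in WT TAC and 97.1 to 177 RPKM in KI TAC hearts. Their mean deviated by 0.63, −0.34 and 1.60 in WT TAC and by −0.76, −0.46 and −0.07 in KI TAC hearts. Their median log2 fold change was −1.17, and none was called. Of 4 tested leukocyte markers 2 (median −0.73) and of 4 smooth muscle markers 1 (−0.36) were called lower in KI TAC hearts. Erythroid markers, of which none was called, had a median log2 fold change of 0.53. Fabp4 was called higher (17.97 to 31.5 RPKM in WT TAC and 62.5 to 120.5 RPKM in KI TAC hearts). It was the only adipocyte marker measured, since Adipoq, Plin1 and Cidec were not among the genes listed, and a single gene does not count adipocytes. The brown adipocyte marker Cidea was not called (0.20). The part of all these cells in the result was not tested.

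All 4 genes of complex II, succinate dehydrogenase, were positive but not called. Sdha, the flavoprotein that oxidizes succinate, was at 149, 157 and 168 RPKM in WT TAC and at 199.6, 319.9 and 245 RPKM in KI TAC hearts without overlap. Its log2 fold change was 0.66 (limma adjusted p = 0.0596). The groups were apart for Sdhb (0.55) and for Sdhc (0.68), an anchor in the membrane. They overlapped for Sdhd, the other anchor, at 119.9, 108 and 160.5 RPKM in WT TAC and 132, 187 and 189 RPKM in KI TAC hearts (0.39).

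Complex IV has subunits that exist as a muscle and a general isoform, and these pairs were compared within each heart. The ratio of Cox7a1 to Cox7a2 was 6.63, 6.86 and 5.34 in WT TAC hearts and 9.69, 10.6 and 10.2 in KI TAC hearts, without overlap. In sham hearts it was 12.2, 7.64 and 7.29 in WT and 8.48, 10.5 and 9.11 in KI mice. The ratio of Cox8b to Cox8a was 1.13, 1.46 and 0.708 in WT TAC and 1.98, 1.98 and 1.57 in KI TAC hearts, again apart. That of Cox6a2 to Cox6a1 was 9.28, 9.98 and 5.87 in WT TAC and 17.9, 12.6 and 7.63 in KI TAC hearts, which overlapped. The exons span 535 bases in Cox7a1 and 944 in Cox7a2, 360 in Cox8b and 619 in Cox8a, and 680 in Cox6a2 and 702 in Cox6a1. A ratio within a heart does not remove the length trend of its library where the lengths differ. The part of that trend was not tested, and no test was made of these ratios.

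**Figure D3:**
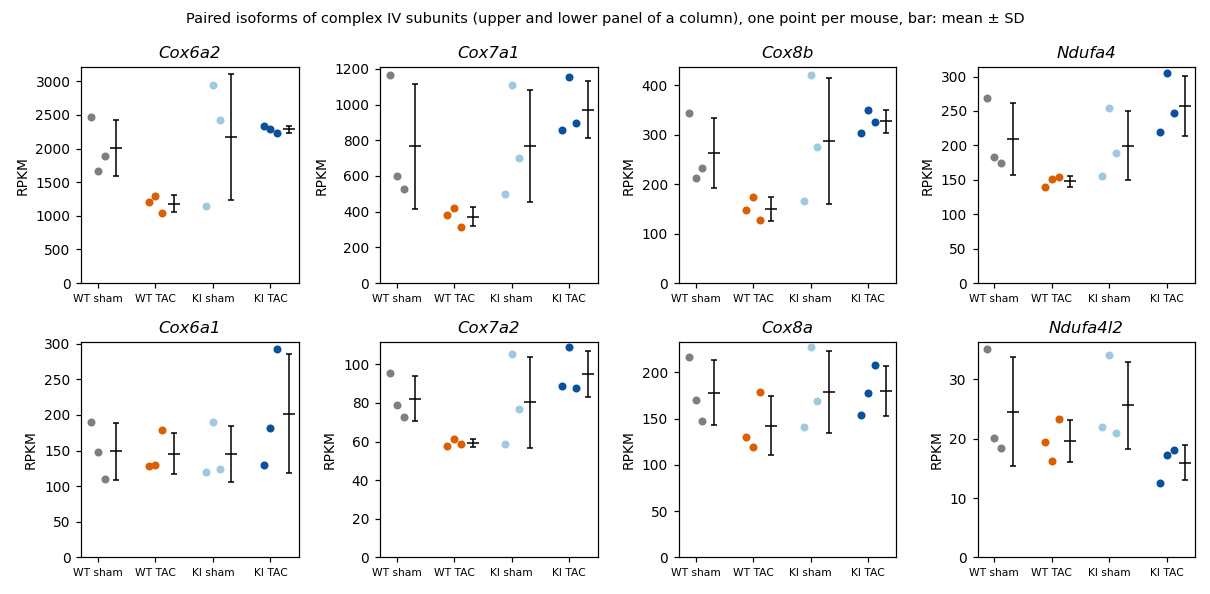
RPKM (vertical axis, from 0) of the muscle isoforms Cox6a2, Cox7a1 and Cox8b and of Ndufa4 in the upper panels and of their paralogs in the lower panels, a point per mouse, with mean ± SD of 3 mice. The mean of the WT TAC hearts is the lowest in each upper panel, although for Cox6a2 and Cox8b KI sham mouse 1 lies among the WT TAC hearts; of the paralogs only Ndufa4l2 has a lower mean in KI TAC (16.0 RPKM) than in WT TAC hearts (19.6 RPKM).

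Among the general isoforms Cox6a1 stood out by its level after TAC. It was at 129, 129.9 and 179 RPKM in WT TAC hearts, close to 149 ± 40.2 RPKM after sham (SD, n = 3), a log2 fold change of −0.01. In KI TAC hearts it was at 130.0, 182 and 293 RPKM. Cox4i2, an isoform of lung and of low oxygen, was low in all groups (2.37 to 5.88 RPKM), and Cox6b2, a testis isoform, was at or under 1.61 RPKM. Ndufa4l2, the paralog of the complex IV subunit Ndufa4 that responds to low oxygen, was the nuclear subunit with a negative log2 fold change in KI TAC against WT TAC hearts (−0.28), where the groups overlapped. It was at 21.9, 34.0 and 20.9 RPKM in KI sham and at 12.6, 17.3 and 18.1 RPKM in KI TAC hearts, apart but not called (log2 fold change −0.63, limma adjusted p = 0.0957). The ratio of Ndufa4 to Ndufa4l2 was 7.19, 9.28 and 6.59 in WT TAC hearts and 17.5, 17.7 and 13.7 in KI TAC hearts.

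In the main fit the mitochondrial-encoded protein genes showed smaller median changes than the nuclear subunits after TAC. Their median log2 fold change was 0.11 in WT TAC against WT sham hearts, 0.02 in KI TAC against KI sham, 0.22 in KI TAC against WT TAC and 0.23 in KI sham against WT sham hearts. In KI TAC against WT TAC hearts 11 of the 12 were positive, 5 were higher without overlap, against 10.1% of all genes, and 3 were at an unadjusted p under 0.05, against 3408 of 11240 genes. Without WT sham mouse 1 the median was −0.22 in WT TAC against WT sham and −0.08 in KI sham against WT sham hearts. Without WT TAC mouse 9 that of KI TAC against WT TAC hearts was 0.10, and with length and GC trends removed it was −0.06. In KI TAC against KI sham hearts the order of the medians was not stable. With length and GC trends removed it was −0.25 for the mitochondrial genes and 0.16 for the nuclear subunits, and without KI sham mouse 1 it was 0.06 and 0.03. With median-ratio scaling the values were 0.16 and 0.33. In each mouse the mean log2(RPKM + 1) of the 86 nuclear subunits was subtracted from that of the 12 mt- genes. This value was 3.06, 2.77 and 3.04 in WT TAC hearts and 2.60, 2.50 and 2.50 in KI TAC hearts, and the mean of KI TAC minus that of WT TAC hearts was −0.42 log2 units, without overlap of the groups. In sham hearts it was 1.70, 3.10 and 3.01 in WT and 3.26, 2.38 and 2.80 in KI mice, a spread that covered both TAC groups. WT sham mouse 1, at 1.70, lay below all others. No test was made of these values. The 12 genes include 5 of uncertain level (below), and over the 7 others, of which mt-Co1, mt-Nd2, mt-Nd4 and mt-Nd5 also have nuclear copies, the value was 6.69 to 6.90 in WT TAC and 6.28 to 6.43 in KI TAC hearts.

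**Figure D4:**
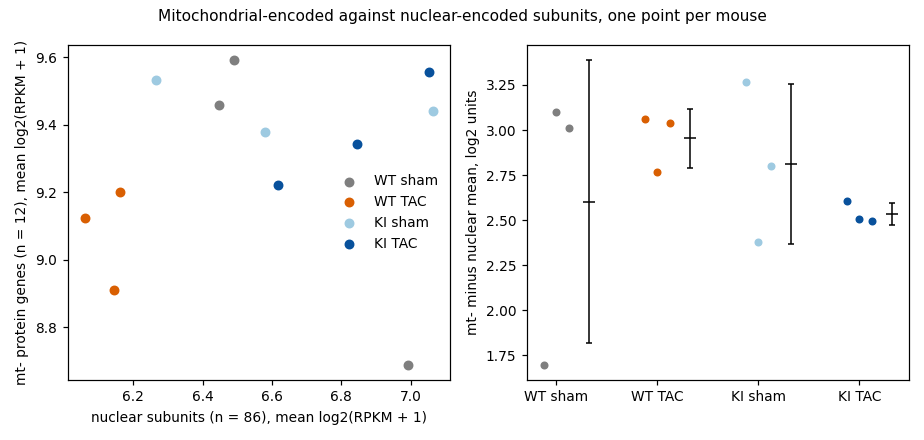
Left, the mean log2(RPKM + 1) of 12 mt- protein genes (vertical axis) against that of 86 nuclear subunits (horizontal axis) in each of 12 mice; right, their difference by group, with mean ± SD of 3 mice. WT TAC hearts lie at 2.77 to 3.06 and KI TAC hearts at 2.50 to 2.60, and WT sham mouse 1 at 1.70 lies apart.

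Of the mt- genes 7 were above 1000 RPKM in every mouse. They were mt-Co1, a core subunit of complex IV, mt-Cytb, the cytochrome b of complex III, and mt-Nd1, mt-Nd2, mt-Nd4, mt-Nd5 and mt-Nd6 of complex I. mt-Co1 was at 17427, 28303 and 30899 RPKM in WT sham hearts and at 23735, 23396 and 23882 RPKM in WT TAC hearts. It was at 27225, 25388 and 25444 RPKM in KI sham and at 23164, 27123 and 21446 RPKM in KI TAC hearts. WT TAC hearts lay below all KI sham hearts, and the WT sham hearts overlapped the other groups only through the low mouse 1. The log2 fold change of KI TAC against WT TAC hearts was 0.01 (standard error 0.23). mt-Cytb and mt-Nd1 were higher in each KI TAC than in each WT TAC heart by small amounts (0.26 and 0.37, limma adjusted p = 0.503 and 0.292). For mt-Nd2, mt-Nd4 and mt-Nd5 the log2 fold changes were 0.15, 0.18 and 0.03.

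mt-Nd6 lies on the other strand from the rest (chrM:13552-14070). It was at 3696, 3668 and 4336 RPKM in WT TAC hearts, 4663, 4767 and 3771 RPKM in KI sham hearts and 5145, 7407 and 6071 RPKM in KI TAC hearts, above every mouse of the other groups. The log2 fold change was 0.66 against WT TAC hearts (standard error 0.23, limma adjusted p = 0.0790). Whether the counting used the strand is not given in the sources used here, and without it reads of mt-Nd6 and of the RNA opposite it cannot be told apart.

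**Figure D5:**
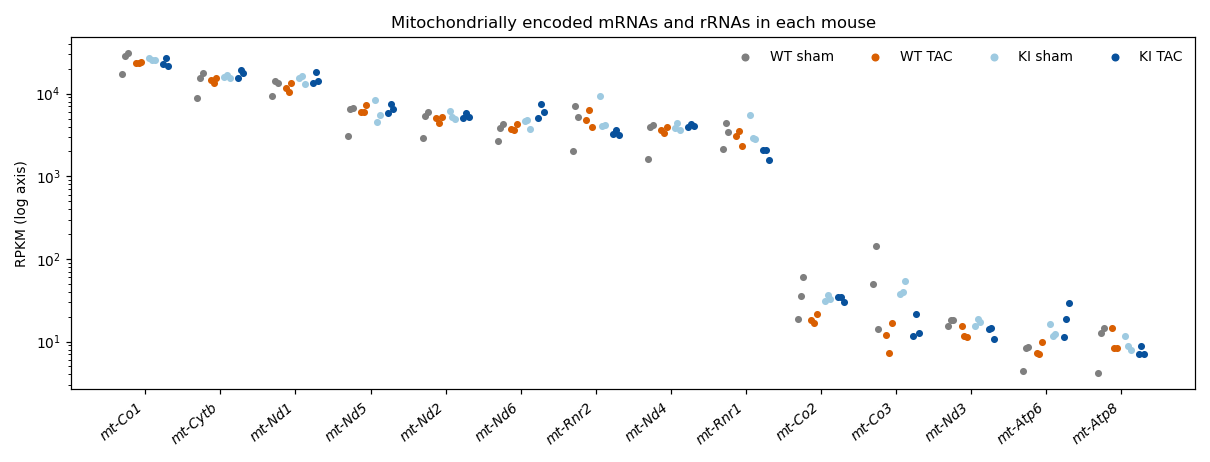
RPKM (logarithmic vertical axis) of the 12 mt- protein genes and 2 mt- ribosomal RNAs in each of 12 mice, ordered by median. A step separates 9 genes above 1000 RPKM from mt-Co2, mt-Co3, mt-Nd3, mt-Atp6 and mt-Atp8 below 150 RPKM. The ribosomal RNA mt-Rnr1 is lowest in the KI TAC hearts, and so is mt-Rnr2 apart from the low WT sham mouse 1.

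The other 5 protein genes, mt-Co2, mt-Co3, mt-Atp6, mt-Atp8 and mt-Nd3, were listed at 4.12 to 145 RPKM. Annotated transcripts from chr1:24611535-24616197 of GRCm38 matched mt-Co2 (Gm28661), mt-Co3 (Gm28437) and mt-Atp6 (Gm10925) over at least 99.6% of their length at 100% identity, and Gm28438 matched mt-Nd3 at 99.7%. In the same stretch Gm28439 matched 63.6% of mt-Nd4 at 100% and Gm29216 matched 31.3% of mt-Co1 at 99.8%, and on chromosome 2 Gm13340 matched the whole of mt-Co1 at 97.6% and Gm13339 matched 49.1% of mt-Nd2 at 96.7%. On chromosome 13 Gm4076 matched 52.3% of mt-Nd5 at 95.2%, so part of the reads of these genes can also fit another place. mt-Atp8 overlaps mt-Atp6 (chrM:7766-7969 and chrM:7927-8607). Reads of such pairs cannot be assigned to a single place, so the levels and changes of these genes are uncertain. Both mitochondrial calls are among them. mt-Co3, subunit 3 of complex IV, was called lower after TAC in WT hearts, at 49.7, 145 and 14.3 RPKM after sham and 12.2, 7.28 and 16.9 RPKM after TAC, which overlap (log2 fold change −1.95, standard error 0.58, limma adjusted p = 0.0436). This call was lost without WT TAC mouse 7 or 9 or WT sham mouse 1 or 2, and over the alternatives the limma adjusted p ran from 0.00302 to 0.142. mt-Atp6, subunit a of ATP synthase, was called higher in KI than in WT hearts after TAC, at 11.3, 18.7 and 29.6 against 7.31, 7.14 and 9.95 RPKM (log2 fold change 1.11, standard error 0.30, limma adjusted p = 0.0350). This call was lost without KI TAC mouse 6 or 7 or WT TAC mouse 7 or 9, in the fit of the TAC hearts alone and with the length trend removed, with or without GC content, and over the alternatives the limma adjusted p ran from 0.0199 to 0.131. mt-Atp6 was also higher in KI sham hearts (16.2, 11.6 and 12.2 RPKM) than in WT sham hearts (4.34, 8.44 and 8.59 RPKM). The remaining log2 fold changes in KI TAC against WT TAC hearts were 0.78 for mt-Co2, 0.03 for mt-Nd3 and −0.37 for mt-Atp8.

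The mitochondrial ribosomal RNAs had lower means in KI TAC than in KI sham or WT TAC hearts. mt-Rnr1, the small subunit RNA, was at 3051, 3548 and 2324 RPKM in WT TAC, 5478, 2906 and 2806 RPKM in KI sham and 2092, 2074 and 1579.6 RPKM in KI TAC hearts. mt-Rnr2, the large subunit RNA, was at 4809, 6316 and 3955 RPKM, 9504, 4056 and 4131 RPKM, and 3214, 3589.9 and 3179 RPKM in the same order. Both were below the KI sham hearts without overlap, as were 24.7% of all genes, and below the WT TAC hearts, as were 19.4%. Neither was called (mt-Rnr1 against KI sham, log2 fold change −0.90, limma adjusted p = 0.0526; mt-Rnr2, −0.71, adjusted p = 0.238). In WT sham hearts mt-Rnr1 ran from 2147 to 4463 RPKM and mt-Rnr2 from 2043 to 7164 RPKM, with mouse 1 the lowest for both. Poly(A) selection takes ribosomal RNA incompletely, which limits these levels. Of the 4 transfer RNAs mt-Tn was lower in KI TAC hearts without overlap (53.9, 71.6 and 59.9 against 97.5, 113 and 78.7 RPKM in WT TAC), against 19.4% of all genes, and mt-Tc, mt-Tl1 and mt-Tp overlapped between the TAC groups. mt-Tp was higher in KI TAC (528, 612 and 617 RPKM) than in KI sham hearts (494, 274 and 382 RPKM) without overlap, against 13.6% of all genes, but was not called (log2 fold change 0.65, limma adjusted p = 0.0838). These genes are 66 to 75 bases long, which is about the length of a read, so their values are uncertain.

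Assembly factors, which build complexes I and IV without being part of them, had medians closer to 0 than the nuclear subunits in the comparisons with TAC hearts. None of the 16 tested was called in any comparison, with 5 at an unadjusted p under 0.05 in WT TAC against sham, 2 in KI TAC against sham, 3 in KI TAC against WT TAC and 0 between the sham groups. Of the 11240 genes tested 3135, 4140, 3408 and 37 were at that level in the same order. Their median was −0.30 in WT TAC against WT sham and 0.26 in KI TAC against WT TAC hearts. The 8 Ndufaf genes of complex I had medians of −0.42 and 0.38, and the 8 tested factors of complex IV of −0.17 and −0.01. Cox19, a copper-binding factor of complex IV, had a positive log2 fold change after TAC in both genotypes, 0.63 in WT and 0.49 in KI hearts. It was at 8.67, 5.62 and 6.65 RPKM in WT sham and 12.2, 10.6 and 10.9 RPKM in WT TAC hearts (limma adjusted p = 0.0551), and was the only member higher after TAC without overlap in WT hearts, against 20% of all genes.

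Other genes of the pathway were read from lists of 97 genes, of which 90 were tested. In KI TAC against KI sham hearts 3 of the 90 were called higher and 11 lower, against 8.57% and 14.7% of all genes. In WT TAC against WT sham hearts the counts were 1 and 3, against 6.96% and 4.6%, and in KI TAC against WT TAC hearts 4 and 1, against 2.92% and 8.13%. Of 11 transcription regulators 4 fell and 2 rose in KI TAC against KI sham hearts. Ppargc1a, the coactivator that drives mitochondrial biogenesis, fell from 18.9 ± 2.18 to 6.16 ± 1.46 RPKM (log2 fold change −1.49, limma adjusted p = 0.00518), and Ppargc1b, its relative, from 76.0, 28.7 and 39.2 RPKM to 6.25, 9.18 and 20.5 RPKM (−1.95). Esrra, the estrogen-related receptor α, fell by 0.85 and Ppara, a receptor that controls fatty acid oxidation, by 1.50 on the log2 scale. Pprc1, a coactivator of the same family, rose by 1.16 and Nrf1 by 0.33. In WT hearts Pprc1 alone of the 11 was called, with a rise of 0.95 after TAC. The means of Ppargc1a (19.9 ± 10.0 and 11.2 ± 3.51 RPKM), Ppara (32.1 ± 11.9 and 16.0 ± 4.17 RPKM) and Esrra (136 ± 40.1 and 93.6 ± 9.56 RPKM) were also lower after TAC than after sham in WT hearts, and none of the 11 was called in the interaction. Between the TAC groups Ppargc1b was called lower in KI hearts (−1.92).

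Of 10 genes of mitochondrial DNA transcription and replication 3 fell in KI TAC against KI sham hearts, where 14.7% of all genes were called lower. They were the RNA polymerase Polrmt (−0.97), the DNA polymerase Polg (−0.56) and the helicase Twnk (−0.52). None of the 10 was called between the TAC groups. Of 14 carriers and membrane proteins 3 were called higher in KI than in WT hearts after TAC, against 2.92% of all genes. They were the adenine nucleotide carrier Slc25a4 (784 ± 81.1 against 1642 ± 385 RPKM, log2 fold change 1.04), the mitochondrial creatine kinase Ckmt2 (0.79) and the uncoupling protein Ucp3 (1.50). Ucp3 was also higher in each KI sham (58.9, 33.2 and 38.2 RPKM) than in each WT sham heart (18.1, 22.1 and 21.7 RPKM), while the TAC groups overlapped (16.7, 48.0 and 49.2 RPKM in KI and 9.77, 19.8 and 7.55 RPKM in WT). Ucp2 rose by 1.01 in KI TAC against KI sham hearts. Of 11 genes of ubiquinone synthesis 3 fell in WT TAC against WT sham hearts, where 4.6% of all genes were called lower. They were Coq8a (194 ± 42.6 to 90.0 ± 20.1 RPKM, −1.10), Coq9 (−0.88) and Pdss2 (−0.53), and Coq8a fell by 1.25 in KI hearts. Of 30 assembly factors outside the rule 3 fell in KI TAC against KI sham hearts, where 14.7% of all genes were called lower. They were Bcs1l (−0.76), Taco1 (−0.76) and Atpaf1 (−0.57). Higd1a alone of the 30 was called higher in KI than in WT hearts after TAC (0.77), against 2.92% of all genes. Of 14 genes of mitochondrial RNA processing none was called in these comparisons.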

How the data were processed

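Per the labels and the study's methods, the authors trimmed single reads of strand-specific libraries with Trimmomatic 0.39, aligned them to GRCm38 with HISAT2 2.2.1, counted them with HTSeq 0.6.1 and used edgeR 3.18.1 and limma 3.32.10 in R 4.1.1. The deposited values are RPKM per gene and mouse. Reads recovered from them were whole (within 0.1 read) for 95.9% to 97.8% of low values. Here limma 3.58.1 (R 4.3.3) was fitted to log2(RPKM + 1) over 4 groups of 3 mice with a trended prior, since RPKM are not counts. P-values were two-sided and adjusted over all genes, and measure the spread between these mice. The fit was checked on simulated data. Named were the 5 largest called changes of each comparison, all mt- protein genes, isoform pairs, complex II, cytochromes, the highest members of the complexes and the 3 largest called changes of other lists per comparison; further names were chosen after their values were seen. A withheld item is not reported here. Members, lists and tests were chosen with earlier results of these data known. Positions and exon lengths came from GENCODE M21, and copies of mt- genes from a search of its transcripts with blastn. Alternatives were another pseudocount, no filter, other scalings, recovered reads, other samples and removal of length and GC trends.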

Additional observations from a re-analysis of the deposited data

Results flagged for a closer look

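Uqcr11 was lower in every WT TAC heart and higher in every KI TAC heart than in the sham hearts of the same genotype, the only member with opposite directions in all mice. In KI hearts the margin was narrow, with sham mouse 2 at 203.5 RPKM and TAC mouse 5 at 203.95 RPKM. The difference between the changes was 1.43 log2 units (standard error 0.45) by the interaction in limma, with an unadjusted p of 0.00716 and an adjusted p of 0.201, so it did not pass over all genes.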

How the results depend on the processing

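The counts of called members depended on settings and mice, while the nuclear medians of the TAC comparisons and of the interaction kept their direction under each alternative run. The nuclear median between the sham groups (−0.00) ran from −0.22 to 0.17. For KI TAC against WT TAC (31 members) the count was 18 in the fit of those groups, 61 at an adjusted p of 0.10, 68 with median-ratio scaling, 56 with the length trend and 49 with length and GC trends removed, and 0 to 21 without single mice. The change after TAC in WT hearts (1 member) had a count of 20 at an adjusted p of 0.10, 11 with median-ratio scaling, 14 with quantile normalization, 4 rescaled without mt- genes, 0 with limma-voom, 20 and 23 with the trends removed, 2 without WT sham mouse 1 and KI sham mouse 2, and 0 to 4 without single mice. For KI TAC against KI sham (0 members) it was 7 at an adjusted p of 0.10, 2 in the fit of those groups, 1 with limma-voom, 3 with median-ratio scaling, 4 with quantile normalization, 6 and 9 with the trends removed, 13 without those 2 sham mice, and 0 to 2 without single mice. Over all genes, calls in WT TAC against WT sham hearts were 1299 in the main fit, 2064 at an adjusted p of 0.10 and 1469 with median-ratio scaling. They were 1560 with quantile normalization, and 1761 and 1891 with the trends removed. In KI TAC against KI sham hearts the same counts were 2620, 3633, 2786, 2815, 3151 and 3221. In KI TAC against WT TAC hearts they were 1242, 2293, 1247, 1136, 1275 and 1271. The member count of the interaction and of the sham comparison stayed at 0 under each alternative run. The nuclear median of KI TAC against WT TAC ran from 0.61 to 0.87 and that of WT TAC against WT sham from −0.63 to −0.36. Median-ratio scaling moved the median of all genes in KI TAC against WT TAC from −0.12 to −0.00, and the calls over all genes from 328 higher and 914 lower to 643 and 604. The mt- minus nuclear difference of −0.42 between the TAC groups was −0.65 with length and GC trends removed, and −0.52 to −0.37 without single mice; that of WT TAC against WT sham (0.35) ran from −0.10 to 0.60 without single mice. With the replicate block for the sham groups 0 members were called. The same numbers did not pair the sham mice (correlations of −0.22, −0.30 and 0.44). The causes were not tested. Each group held 3 mice, and each nuclear subunit had at least 409 reads in every mouse, except Cox4i2 (45) and Cox6b2 (11).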

Other observations

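Ndufa12-ps, a pseudogene of a complex I subunit at chr5:130188395-130188796, was near 0 in 5 mice and clearly present in the other 7, irrespective of group. It was at 0.232 RPKM in WT sham mouse 1, 0.387 and 0.571 RPKM in WT TAC mice 7 and 10, 0.102 RPKM in KI sham mouse 1 and 0.394 RPKM in KI TAC mouse 7. In the others it ran from 9.61 RPKM in KI TAC mouse 5 to 21.5 RPKM in WT sham mouse 3. Cox5b-ps showed no such split, at 1.89 to 6.86 RPKM.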
